A study of Mus musculus with 20 samples.

Results

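The comparison described here set mouse nephron progenitor cells (NPCs) that had received guides against 4 cadherin genes beside NPCs that had received a guide against GFP, both under strong Wnt stimulation. It held 5 of the 20 RNA-seq libraries of the series, chosen by their labels and not by any measured value. There were 2 libraries of the quadruple cadherin knockout (QCKO, replicates 2 and 3) and 3 control libraries (CTRL, replicates 1, 2 and 3). The cells were primary NPCs from E16.5 mouse kidney with the Cas9-eGFP genotype, so that every group, CTRL included, carried Cas9 and a GFP reporter. Guide RNAs entered by lipofection, and *Cdh2*, *Cdh3*, *Cdh4* and *Cdh11* were targeted together in QCKO, while the CTRL guide was directed against GFP. After 48 h of knockout the cells were held for 24 h in 5 µM CHIR99021 (high CHIR), an inhibitor of GSK3 that stabilises β-catenin. Guides were given with mCherry mRNA and mCherry-positive cells were sorted, so each library came from an edited population and not a clone. The embryos came from a cross of a mouse line that carries Cas9-EGFP at ROSA26 under the CAG promoter with SWR/J. Libraries of QCKO and CTRL in low CHIR (1.25 µM, 2 and 3 libraries) and of the α-catenin knockout (α-catenin KO, guides against *Ctnna1*) in high CHIR (2 libraries) served only to show where this comparison differed.

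Classical cadherins are calcium-dependent adhesion proteins of the cell surface. Their outer domains bind cadherins on the neighbouring cell, and their cytoplasmic tails bind β-catenin, which binds α-catenin, which in turn couples the junction to actin. In the developing kidney, Wnt signals make mesenchymal NPCs gather into clusters that become an epithelial renal vesicle, and cadherins change as they do so. β-Catenin also acts in the nucleus with Lef/Tcf factors, so the comparison bore on whether the genes that a Wnt signal controls depend on adhesion.

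The guides used to remove 3 of the 4 cadherins are shown because every value below rests on what they did. Each is written 5′ to 3′ as RNA, and capitals mark the 12 bases nearest the protospacer-adjacent motif, where a mismatch is tolerated least.
Cdh3: ccgaugaaGCCCGCUCGGUA
Cdh4: ccauccccAGGCCCACCGUG
Cdh11: caccagcaCAGGGUCAGGCC
Each was 20 bases long, with a GC content of 65% for *Cdh3*, 75% for *Cdh4* and 70% for *Cdh11*. In RefSeq on GRCm38.p6, *Cdh3* (P-cadherin) lies at chr8:106510852-106556911, *Cdh11* (OB-cadherin) at chr8:102632095-102785493 and *Cdh4* (R-cadherin) at chr2:179442423-179899377. The exon each guide cuts was not determined here, and a count per gene does not show an edit: a small insertion or deletion changes the protein and may leave the transcript level as it was.

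The 5 libraries held between 18124772 and 28472412 reads in genes, recovered from the deposited normalized counts. The log2 values of the 2 QCKO libraries correlated at 0.980 across 16516 genes, which are not independent replicates, and CTRL replicates 1 and 3 at 0.969. CTRL replicate 2 stood apart, with correlations of 0.934 and 0.952 to the other CTRL libraries. Its normalized total was 28329400 against 21855500 to 22804100 in the other libraries. Over the 798 named genes of shortest genomic span its median lay 0.34 log2 units above the other CTRL libraries, and over the 798 of longest span the median difference was -0.38. The median log2 fold change of QCKO over CTRL also varied with span. In order of rising span it was -0.10 (798 genes), 0.36 (797), 0.34 (797) and 0.30 (798). Without CTRL replicate 2 these medians were 0.001, 0.25, 0.26 and 0.16. List medians given below were not matched for span. The part of span or of CTRL replicate 2 in any single result was not tested. Results are given without CTRL replicate 2 where that library moved them. The cells carried NPC transcripts at the low levels of an induced culture: *Six2*, the transcription factor that keeps NPCs undifferentiated, averaged 72.4 normalized counts in CTRL at high CHIR against 1375 at low CHIR, and *Wt1* averaged 212 and 855.

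Of the 4 targeted genes, *Cdh11* alone was lower in both QCKO libraries than in every CTRL library. Its values were 2092, 1883 and 1968 normalized counts in CTRL replicates 1, 2 and 3 and 1005 and 589 in QCKO replicates 2 and 3. The QCKO mean was 40.2% of the CTRL mean (797 ± 294, SD, n = 2, against 1981 ± 105, SD, n = 3). The log2 fold change in the limma fit over 14 libraries was -1.36 ± 0.26 (SE), with an unadjusted p of 0.00018 and an adjusted p of 0.55 over 16516 genes, which missed the threshold of 0.05. DESeq2 on the recovered reads gave an adjusted p of 0.016 for *Cdh11*. The exact two-sided permutation test over the 5 libraries gave p = 0.10, the smallest that 10 splits allow.

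The other targets did not separate the groups. *Cdh3* held 3588, 2557 and 3719.8 normalized counts in CTRL replicates 1, 2 and 3 and 3347 and 3481 in QCKO replicates 2 and 3. Its QCKO mean was 104% of the CTRL mean, and both QCKO values lay within the CTRL range. *Cdh4* held 8839.6, 7756 and 7647 normalized counts in CTRL replicates 1, 2 and 3 and 10276 and 6666 in QCKO replicates 2 and 3, with QCKO replicate 2 above and replicate 3 below every CTRL library. *Cdh2* (N-cadherin) held 2439, 989 and 1359 normalized counts in CTRL replicates 1, 2 and 3 and 1222 and 1236 in QCKO replicates 2 and 3. The CTRL mean of *Cdh2* rested on replicate 1: the log2 fold change of -0.27 ± 0.37 became 0.08 when that library was left out, and the 2 groups overlapped. Exact two-sided permutation p-values were 0.80 for *Cdh2*, 1.0 for *Cdh3* and 0.80 for *Cdh4*. In bulk RNA, fewer cells that carry a transcript and less of it per cell cannot be told apart.

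**Figure D1:**
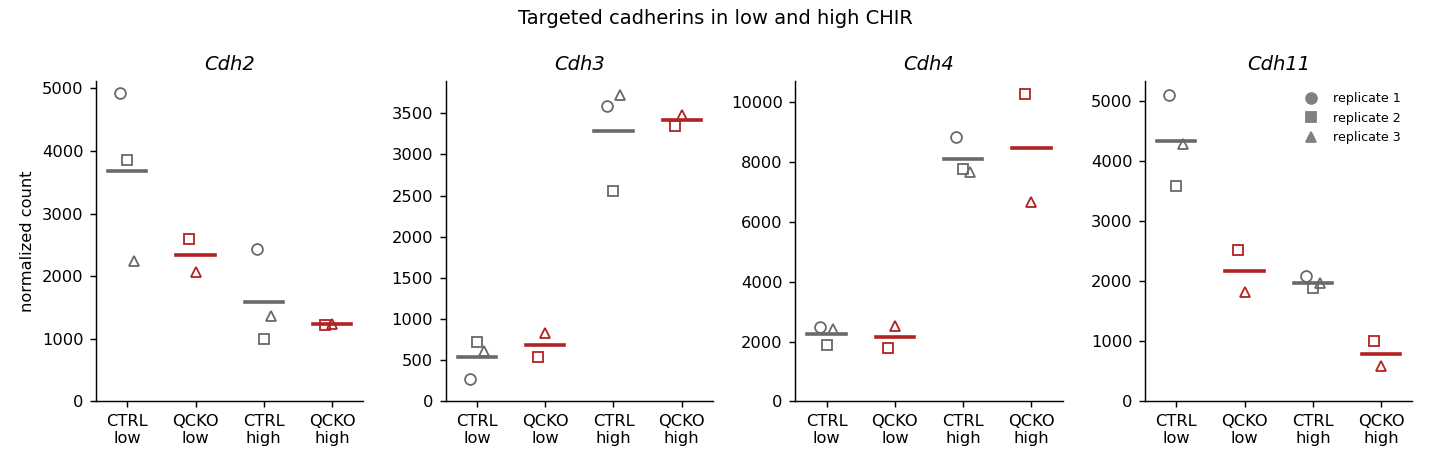
Normalized counts of the 4 targeted cadherins (vertical axis, from 0) in each library of CTRL and QCKO in low and high CHIR, with symbols for the replicate number and bars for the group mean. *Cdh11* sits lower in both QCKO libraries of each condition, while the points of *Cdh2*, *Cdh3* and *Cdh4* in high CHIR overlap between CTRL and QCKO.

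*Cdh11* also lay lower in QCKO in low CHIR, where its values were 5112, 3594 and 4295 in CTRL against 2519 and 1818 in QCKO, a mean of 50.0% of CTRL. The difference between the *Cdh11* effects in high and low CHIR was -0.36 ± 0.37 log2 units (unadjusted p = 0.35, limma), within its error. The 2 α-catenin KO libraries in high CHIR held 2008 and 1443 normalized counts, and QCKO lay -1.14 ± 0.28 log2 units from them (unadjusted p = 0.0016, adjusted p = 1.0, limma).

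Across all genes, no gene passed the limma test in high CHIR (0 of 16516, 0%, at an adjusted p under 0.05 and a log2 fold change beyond 0.5). Taking an unadjusted p below 0.05 gave 1444 genes (8.74%), 954 of them higher in QCKO (5.78%) and 490 lower (2.97%). In 2193 genes (13.3%) both QCKO libraries lay above every CTRL library, and in 2192 (13.3%) both lay below. edgeR called 0 genes, with 1411 at an unadjusted p under 0.05. DESeq2 called 7 genes (0.0424%): *Cxcl12*, *Serpinb7*, *Rasl11a*, *Cpm*, *Cdh11*, *Kit* and ENSMUSG00000032327. With the replicate number as a block, limma still called 0 genes but had 2521 genes at an unadjusted p under 0.05 (15.3%), and DESeq2 called 79 genes, 67 higher (0.406%) and 12 lower in QCKO (0.0727%), together 0.478% of genes. The blocked DESeq2 value is given below for each gene described that DESeq2 called with the block and not without it. The counts depended on single libraries, with 3357 genes below an unadjusted p of 0.05 without CTRL replicate 1, 851 without CTRL replicate 2, 587 without QCKO replicate 2 and 571 without QCKO replicate 3.

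**Figure D2:**
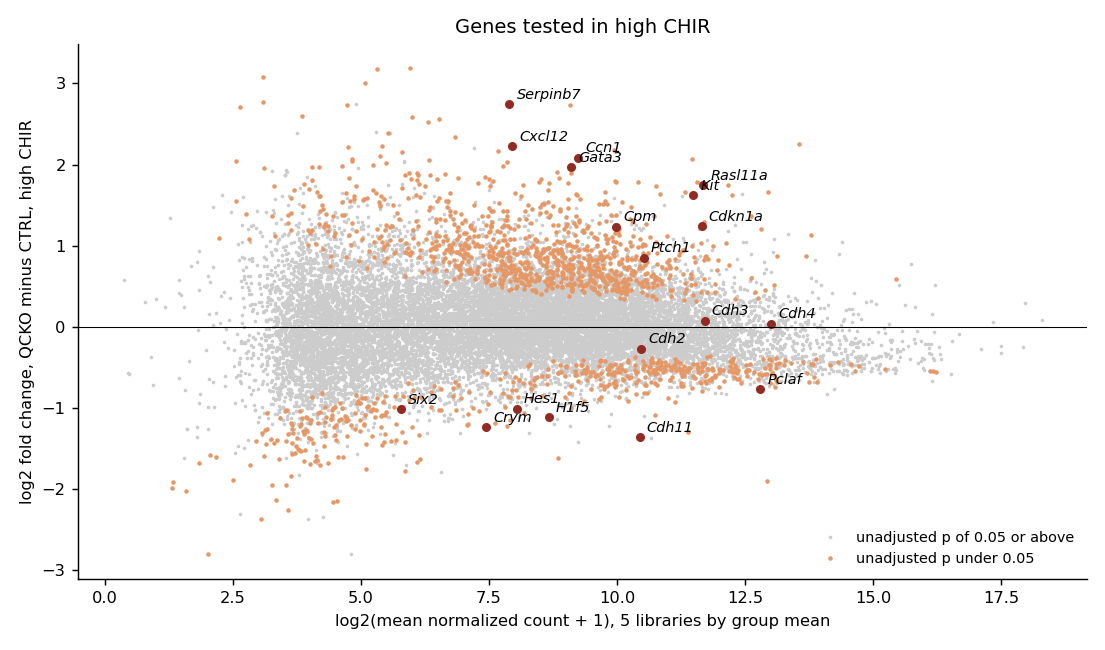
Log2 fold change of QCKO over CTRL in high CHIR (vertical axis) against the log2 of the mean normalized count plus 1 (horizontal axis) for the 16516 genes tested. Orange points have an unadjusted limma p under 0.05, and dark red points are labelled genes described in the text: *Serpinb7*, *Cxcl12* and *Rasl11a* lie far above 0, *Cdh11* far below, and the other targeted cadherins close to 0.

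A gene could be called by name only where the study's own comparison tables pair its identifier with a symbol, which held for 3924 of the genes tested. Those tables list genes picked for a difference, and 750 of the named genes owe their name to this same comparison alone, so counts of named genes are read against named genes too. Among the 2408 genes named through the CTRL low against high CHIR table (CHIR-named genes), which shares the 3 CTRL libraries, 11.5% were higher in QCKO at an unadjusted p under 0.05 and 4.57% lower, and 19.8% were higher without overlap and 13.9% lower.

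A pair of related small GTPases of the Ras-like family stood among the genes with the clearest separation. *Rasl11a* had 1613, 1032 and 1988 normalized counts in CTRL replicates 1, 2 and 3 and 5547 and 4482 in QCKO replicates 2 and 3, so the lowest QCKO value exceeded the highest CTRL value more than 2-fold. The log2 fold change was 1.74 ± 0.31 (limma, unadjusted p = 0.00011, adjusted p = 0.55), with 2.43 between the libraries of replicate 2 and 1.17 between those of replicate 3. DESeq2 gave an adjusted p of 0.0019. Its paralogue *Rasl11b* was far less abundant, at 128, 40.6 and 84.6 in CTRL against 225 and 328 in QCKO, with a log2 fold change of 1.82 ± 0.44 (limma, unadjusted p = 0.0012) that was 1.37 without CTRL replicate 2, and DESeq2 with the replicate block gave an adjusted p of 0.028. Of the 18 genes on the list of Ras-like and related GTPases 5 could be named and tested, and these 2 were the only ones without overlap (40%, against 19.8% of CHIR-named genes). Of the 4 CHIR-named members 1, *Rasl11a*, lay higher without overlap. It was known to differ when the list was drawn up, and *Rasl11b* owes its name to the knockout comparisons in high CHIR. The share is therefore no result about the family.

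*Cxcl12*, the chemokine that attracts cells bearing CXCR4, showed the lowest unadjusted p of all genes. Its values were 95.3, 92.9 and 72.1 normalized counts in CTRL replicates 1, 2 and 3 and 433 and 379.7 in QCKO replicates 2 and 3, a log2 fold change of 2.22 ± 0.33 (limma, unadjusted p = 1.6e-05, adjusted p = 0.27; DESeq2 adjusted p = 2.4e-05). The range over 19 alternatives of processing was 2.10 to 2.32. In low CHIR *Cxcl12* was much more abundant in both groups, at 2089, 1602 and 2594 in CTRL against 2303 and 3973 in QCKO. *Kit*, the receptor tyrosine kinase for stem cell factor, held 1877, 863 and 1669.9 normalized counts in CTRL replicates 1, 2 and 3 and 3995 and 4585 in QCKO replicates 2 and 3. CTRL replicate 2 was the lowest of these, and the log2 fold change of 1.62 ± 0.34 (limma, unadjusted p = 0.00046) was 1.27 without it. The ligand gene *Kitl* overlapped between the groups, at 226, 98.3 and 331 in CTRL against 167 and 296 in QCKO, as did *Ackr3*, which encodes a second receptor for the CXCL12 chemokine, at 553, 763 and 404 in CTRL against 773 and 409.6 in QCKO.

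*Serpinb7*, a gene of the serine protease inhibitor family, was listed at 0 in all 5 low CHIR libraries of CTRL and QCKO. In high CHIR it had 68, 37.4 and 72.9 normalized counts in CTRL replicates 1, 2 and 3 and 264 and 567 in QCKO replicates 2 and 3, a log2 fold change of 2.74 ± 0.52 (limma, unadjusted p = 0.00017). *Cpm*, which encodes the membrane-bound carboxypeptidase M, had 795, 517 and 505 normalized counts in CTRL replicates 1, 2 and 3 and 1583 and 1226 in QCKO replicates 2 and 3 (log2 fold change 1.23 ± 0.24, unadjusted p = 0.00022, limma). The gene ENSMUSG00000032327, which the files do not pair with a symbol, had 293, 404 and 201 normalized counts in CTRL replicates 1, 2 and 3 and 1018 and 774 in QCKO replicates 2 and 3. In each of these genes the 2 groups were apart, with the lower QCKO library above the highest CTRL library.

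The abundant named genes higher in QCKO with the lowest unadjusted p also included *Ptch1*, *Gaa*, *Mafg* and *Ak1*. *Ptch1*, the Hedgehog receptor and a target of the same pathway, held 1014, 1124 and 970.1 in CTRL against 2243 and 1556 in QCKO (log2 fold change 0.85 ± 0.19, limma). *Gaa*, the lysosomal enzyme acid α-glucosidase, held 1266, 790.4 and 872 in CTRL against 2050.1 and 1777 in QCKO (log2 fold change 1.00 ± 0.23, limma, and DESeq2 with the replicate block gave an adjusted p of 0.03). *Mafg*, a small Maf partner of NRF transcription factors that was named through this comparison alone, held 1918, 1484 and 1690.3 in CTRL against 4101 and 2566 in QCKO, and *Ak1*, adenylate kinase of the cytosol, 859.6, 490.3 and 527 in CTRL against 1224 and 1480.3 in QCKO (DESeq2 adjusted p = 0.03 with the replicate block).

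**Figure D3:**
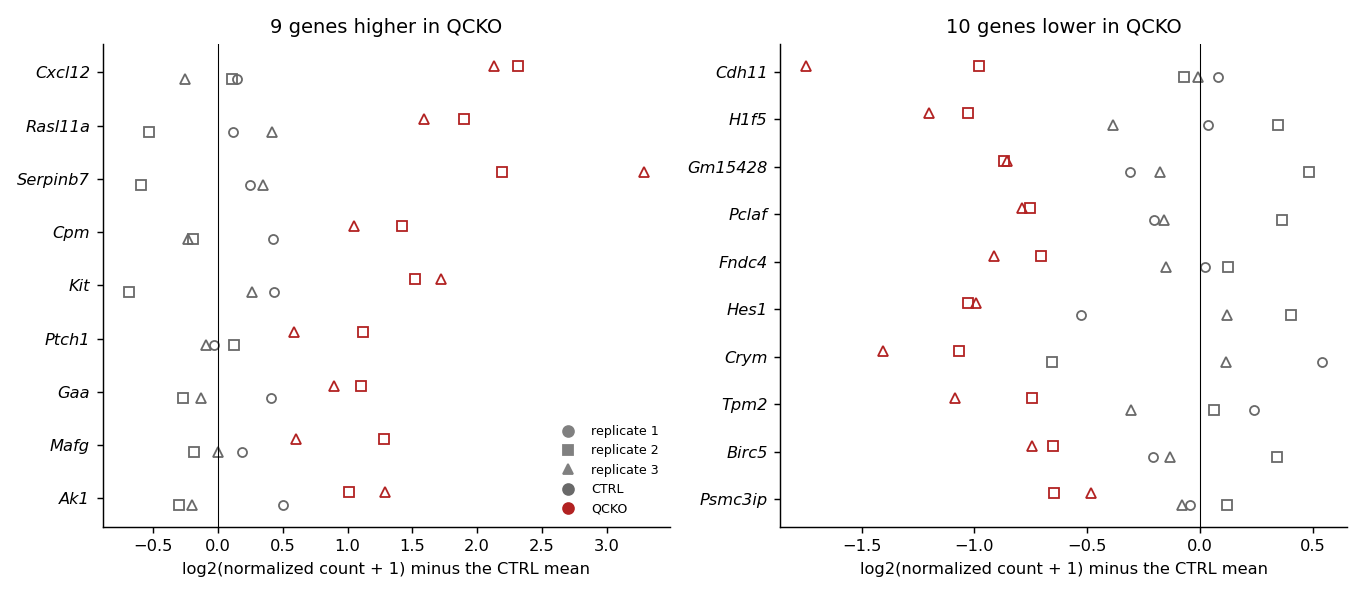
Log2(normalized count + 1) minus the mean of the 3 CTRL libraries (horizontal axis) for 9 named genes higher and 10 lower in QCKO with the lowest unadjusted p among those whose libraries did not overlap and whose mean reached 100. Each symbol is 1 library, grey for CTRL and red for QCKO, and CTRL replicate 2 (grey squares) is often the library at the far side from QCKO, as for *Kit* and *Gm15428*.

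After *Cdh11*, the named abundant gene lower in QCKO with the lowest unadjusted p was *H1f5*, and *H1f5*, *Pclaf* and *Birc5* owe their names to this comparison alone, which favours genes that differ. *H1f5*, a linker histone gene, held 560.2, 694 and 418 normalized counts in CTRL replicates 1, 2 and 3 and 267 and 237 in QCKO replicates 2 and 3 (log2 fold change -1.12 ± 0.25, limma, unadjusted p = 0.00075), and DESeq2 with the replicate block gave an adjusted p of 0.034. *Pclaf*, which encodes a PCNA-binding factor of DNA synthesis, was abundant and lay at 7724, 11445 and 7979 in CTRL against 5274 and 5151 in QCKO, a log2 fold change of -0.77 ± 0.21. *Birc5* (survivin), a chromosomal passenger of mitosis, lay at 2579.9, 3770.3 and 2716 in CTRL against 1896 and 1779 in QCKO, and *Psmc3ip*, a cofactor of homologous recombination, at 1229, 1375 and 1199.7 in CTRL against 809 and 906 in QCKO. CTRL replicate 2 was the highest library for each of these 4 genes, and without it the differences of *H1f5*, *Pclaf*, *Birc5* and *Psmc3ip* were -0.94, -0.59, -0.53 and -0.50 log2 units.

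On the proliferation list 3 of 22 genes could be named and tested, all 3 only through this comparison, which selects genes for a difference in either direction, so that their count is no result. Besides *Birc5* they were *Pcna*, the sliding clamp of DNA polymerase, at 8672, 10332 and 8248 in CTRL against 5690.3 and 6400.2 in QCKO, and *Tyms*, thymidylate synthase, at 5808, 6109 and 5137 in CTRL against 3935 and 4042 in QCKO. The differences were modest, at -0.58 ± 0.18 log2 units for *Pcna* and -0.51 ± 0.16 for *Tyms*. In low CHIR the same differences were -0.14 ± 0.18 and -0.18 ± 0.16.

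The other lower genes had different roles. *Hes1*, a repressor that Notch signalling induces, held 238, 455 and 374 normalized counts in CTRL replicates 1, 2 and 3 and 168 and 172 in QCKO replicates 2 and 3 (log2 fold change -1.01 ± 0.27, limma, unadjusted p = 0.0027), and DESeq2 with the replicate block gave an adjusted p of 0.016. *Crym*, encoding μ-crystallin and marking NPCs, held 341, 148 and 254 in CTRL against 111 and 87.9 in QCKO, with -0.42 between the libraries of replicate 2 and -1.52 between those of replicate 3, and DESeq2 with the replicate block gave an adjusted p of 0.048. *Tpm2*, β-tropomyosin, held 1814, 1602 and 1241 in CTRL against 915 and 722 in QCKO. *Tpm2*, *Fndc4* and *Gm15428* owe their names to this comparison alone, which favours genes that differ. *Fndc4* lay at 237, 254 and 210.0 in CTRL against 142 and 123 in QCKO and *Gm15428* at 1067, 1855 and 1173 in CTRL against 726 and 731 in QCKO, with a difference of -0.86 ± 0.23 log2 units that was -0.62 without CTRL replicate 2.

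p53 is the transcription factor that DNA breaks activate, and its targets slow the cell cycle and promote repair or death. Of 20 genes on the list 10 could be named and tested. All 10 had a log2 fold change above 0, 6 lay higher without overlap and at an unadjusted p under 0.05 (60%, against 19.8% and 11.5% of CHIR-named genes), and none lower. The median was 0.78 log2 units, against 0.02 over all genes tested and 0.12 over those named through the CHIR table. Of the 9 members named that way, 5 were higher without overlap and the median was 0.76. Without CTRL replicate 2, 7 of the 10 were higher without overlap (70%, against 26.1% of CHIR-named genes) and 5 had an unadjusted p under 0.05 (50%, against 8.17%). With the replicate block 7 did (70%, against 17.3%). None passed the adjusted threshold.

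*Cdkn1a*, the p21 inhibitor of cyclin-dependent kinases, was the most abundant member at 1594, 2877 and 1458 normalized counts in CTRL replicates 1, 2 and 3 and 4359 and 4558 in QCKO replicates 2 and 3 (log2 fold change 1.24 ± 0.41, limma, unadjusted p = 0.011). It owes its name to this comparison alone. Among the 9 other members, *Sesn2*, a stress-induced inhibitor of mTORC1, held 171, 143 and 118 in CTRL against 246 and 319.8 in QCKO (log2 fold change 0.97 ± 0.26, unadjusted p = 0.0027, limma). *Ccng1*, cyclin G1, held 699, 647 and 522 in CTRL against 868 and 1256 in QCKO, and *Plk2*, a kinase of the polo family, 857, 307 and 668 in CTRL against 1027 and 1745 in QCKO. *Eda2r*, a receptor of the TNF family, and *Zmat3*, an RNA-binding factor, also lay apart, with log2 fold changes of 0.99 ± 0.39 and 0.80 ± 0.33.

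The *Cdkn1a* values of low CHIR were 826, 2532 and 1681 in CTRL against 3121 and 4033 in QCKO, a log2 fold change of 1.22 ± 0.41. The median of the 10 genes in low CHIR was 0.79 log2 units, beside 0.78 in high CHIR. The difference between the effects in high and low CHIR was 0.02 ± 0.59 for *Cdkn1a*, -0.05 ± 0.37 for *Sesn2* and -0.13 ± 0.36 for *Ccng1*, each within its error. It was 0.06 ± 0.55 for *Eda2r* and 0.04 ± 0.47 for *Zmat3*, but 0.94 ± 0.51 for *Plk2* (unadjusted p = 0.092, limma), beyond its error. The α-catenin KO median was 0.40, from the same CTRL libraries, and QCKO lay 0.67 ± 0.45 log2 units above α-catenin KO for *Cdkn1a* (unadjusted p = 0.17) and 0.53 ± 0.29 for *Sesn2* (unadjusted p = 0.086, limma). QCKO cells received 4 cutting guides with targets in endogenous genes, and CTRL cells 1 against the reporter. The number of cuts and the loss of cadherins cannot be told apart in this design.

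Because 6 p53 targets lay apart in the same direction, the 250 bases before their start sites were searched for the p53 motif, which is made of 2 cores of 10 bases with a spacer of 0 to 13 bases and reads the same on both strands. RefSeq windows on GRCm38.p6 were held for 8 of the 10 genes. The full motif was in the window of *Cdkn1a* alone among them and in 0.0639% of 32851 windows of all genes. A single core was in windows of *Cdkn1a*, *Ccng1*, *Ddit4l* and *Polk*, and in 7.13% of all windows. The windows of the 2 members that lay apart between the groups and held a match are printed 5′ to 3′ on the strand of the gene, with capitals on the full motif for *Cdkn1a* (chr17:29090729-29090978, plus strand) and on the single core for *Ccng1* (chr11:40755287-40755536, minus strand).
Cdkn1a: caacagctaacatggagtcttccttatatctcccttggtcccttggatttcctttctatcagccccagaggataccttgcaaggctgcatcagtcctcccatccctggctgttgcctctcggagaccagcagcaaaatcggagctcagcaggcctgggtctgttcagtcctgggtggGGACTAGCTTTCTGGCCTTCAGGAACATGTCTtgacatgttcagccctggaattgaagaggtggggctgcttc
Ccng1: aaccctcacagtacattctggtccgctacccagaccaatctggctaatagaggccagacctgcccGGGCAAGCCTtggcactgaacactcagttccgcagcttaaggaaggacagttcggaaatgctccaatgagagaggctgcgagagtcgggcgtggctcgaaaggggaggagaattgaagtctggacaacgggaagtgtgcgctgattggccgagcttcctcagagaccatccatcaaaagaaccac
The *Cdkn1a* motif began 73 bases before the start site and the *Ccng1* core 185 bases before it. *Cdkn1a* has another annotated start, whose window held no match.

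**Figure D4:**
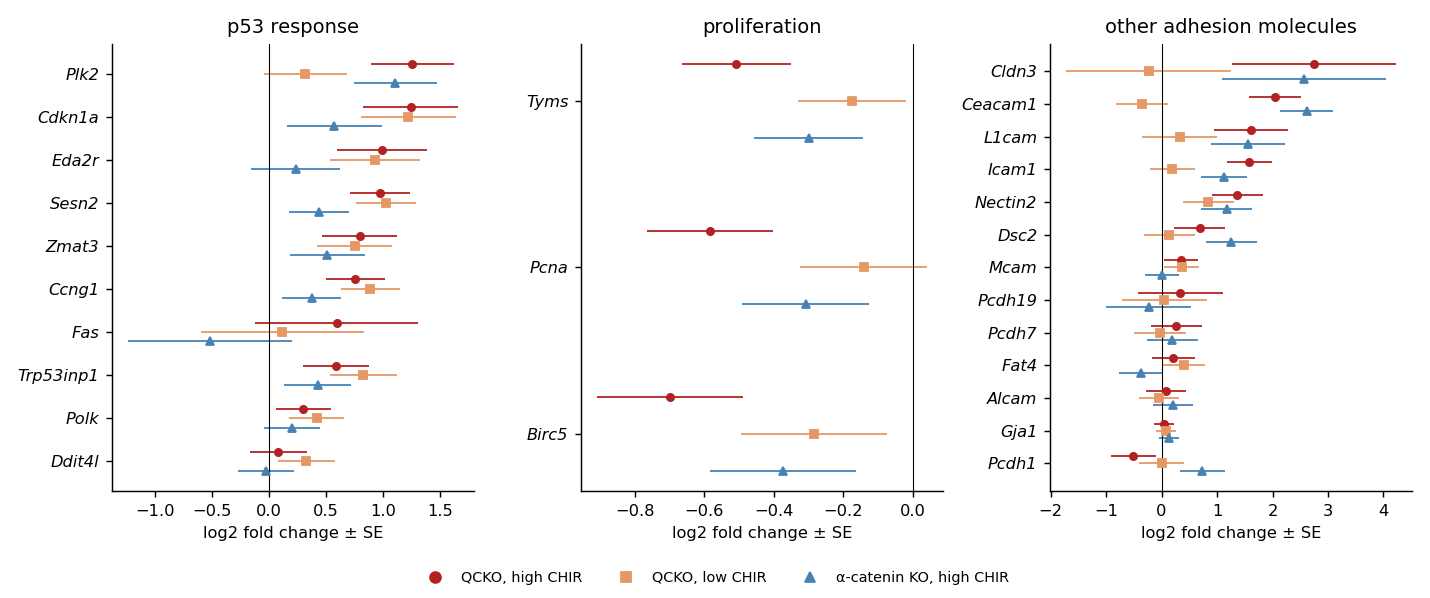
Log2 fold change with its SE (horizontal axis) for the members of 3 lists in QCKO against CTRL in high CHIR (red circles), QCKO against CTRL in low CHIR (orange squares) and α-catenin KO against CTRL in high CHIR (blue triangles). The red and blue points share the 3 CTRL libraries. p53 targets such as *Cdkn1a* and *Sesn2* lie above 0 in QCKO in both CHIR conditions, while *Ceacam1* lies at 2.04 for QCKO in high CHIR and at -0.35 in low CHIR.

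Of the 30 genes on the list of other adhesion molecules, 13 could be named and tested. In 12 the log2 fold change was above 0, which held for 1379 of the 2408 CHIR-named genes and 8607 of all 16516. Higher without overlap were 7 (53.8%, against 19.8% of CHIR-named genes), 4 of them at an unadjusted p under 0.05. None was lower without overlap, but 1 was (7.69%, below the 17.6% of CHIR-named genes) without CTRL replicate 2. The list median was 0.35, against 0.12 over CHIR-named genes. Named genes beyond the 798 of shortest span had medians of 0.30 to 0.36, so the list median is not read as a result about adhesion. *Icam1*, an immunoglobulin-family ligand of leukocyte integrins, held 31.8, 40.6 and 17.2 normalized counts in CTRL replicates 1, 2 and 3 and 112 and 66.4 in QCKO replicates 2 and 3 (log2 fold change 1.58 ± 0.41, limma, unadjusted p = 0.0021), and DESeq2 with the replicate block gave an adjusted p of 0.0027. *Nectin2*, which builds adherens junctions beside cadherins, held 399, 176 and 416 in CTRL against 572 and 1106 in QCKO, and its difference of 1.37 ± 0.46 log2 units was 0.96 without CTRL replicate 2. *L1cam* was scarce, at 6.8, 12.8 and 21.9 in CTRL against 29 and 56.1 in QCKO. *Ceacam1*, also of the immunoglobulin family, was barely detected, at 2.27, 1.07 and 0.784 in CTRL against 8.45 and 8.42 in QCKO. The tight-junction gene *Cldn3* was also scarce, at 3.4, 4.27 and 16.5 in CTRL against 61.6 and 38.3 in QCKO, and its log2 fold change of 2.75 ± 1.48 had a wide error. The gap-junction gene *Gja1* was abundant and overlapped, at 44924, 41874 and 33628 in CTRL against 43605 and 38462 in QCKO.

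Among cadherins that received no guide, 3 of 18 could be named and tested. *Cdh1* (E-cadherin), the cadherin of epithelia, held 24.9, 34.2 and 50.2 normalized counts in CTRL replicates 1, 2 and 3 and 128 and 254 in QCKO replicates 2 and 3. Both QCKO values lay above every CTRL value, and the log2 fold change was 2.33 ± 1.00 (limma, unadjusted p = 0.037). With the replicate block the difference was 1.63 (limma, unadjusted p = 0.020). *Cdh1* is the next cadherin gene after *Cdh3* on the chromosome, at chr8:106603350-106670247, with 46438 bases between them. *Cdh13* (T-cadherin) held 1034, 1025 and 834 in CTRL against 1285 and 980.0 in QCKO and *Cdh15* (M-cadherin) 23.8, 27.8 and 31.3 in CTRL against 13.3 and 29 in QCKO, and both overlapped. *Cdh1* was also high in α-catenin KO, at 77.3 and 309.6, and QCKO lay 0.22 ± 1.10 log2 units from it. In low CHIR its values were 34.8, 448 and 167 in CTRL against 159.6 and 112 in QCKO.

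Of the catenins and linkers, 5 of 17 were named and tested. *Ctnna1* (αE-catenin) held 9314, 5817 and 7624 in CTRL against 8915 and 9631 in QCKO and overlapped, and *Ctnnd2* (δ-catenin) held 130.4, 264 and 168 in CTRL against 442 and 268 in QCKO without overlap. For *Ctnnd2* the log2 fold change was 0.94 ± 0.45 in high CHIR and -1.48 ± 0.45 in low CHIR, a difference of 2.42 ± 0.63 (limma, unadjusted p = 0.0022, adjusted p = 1). *Actn4*, α-actinin of actin bundles, held 3278, 728 and 2441 in CTRL against 3864 and 5039.5 in QCKO, with CTRL replicate 2 far below the other libraries and a difference of 0.64 without it in place of 1.29.

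Of 22 genes of nephron induction 11 could be named and tested, and their median log2 fold change was 0.01. It was -0.28 without CTRL replicate 2, 0.14 without CTRL replicate 1 and -0.11 with the replicate block, so that no direction of the list is given. *Wnt4*, the Wnt ligand of the forming renal vesicle, held 5286, 4156 and 5401 normalized counts in CTRL replicates 1, 2 and 3 and 5664 and 4798 in QCKO replicates 2 and 3. *Jag1*, the Notch ligand of the induced aggregate, held 7444, 2725 and 13323 in CTRL against 4024 and 10562 in QCKO, and *Lhx1*, a transcription factor of the renal vesicle, 2785, 609.9 and 3849.9 in CTRL against 1217 and 2772 in QCKO. Both varied more between replicate numbers than between groups. *Lef1*, a nuclear partner and target of β-catenin, held 1118, 948 and 1465 in CTRL against 1205 and 1492 in QCKO (log2 fold change 0.21 ± 0.23, limma). 1 member lay higher without overlap (9.09%), and the 2 that lay lower without overlap (18.2%, against 13.9% of the CHIR-named genes) were *Hes1* and *Bmp2*, a ligand of the BMP family, at 327, 272 and 592 in CTRL against 188 and 170.2 in QCKO. In CTRL *Hes1* averaged 1050 in low CHIR and 356 in high CHIR, so it fell with CHIR, while *Bmp2* rose from 78.0 to 397. Without CTRL replicate 2, 4 of the 11 lay lower without overlap (36.4%, against 17.6% of the CHIR-named genes in the same setting). The differences between libraries of the same replicate number were 0.56 and -0.33 log2 units for *Jag1* and 1.00 and -0.47 for *Lhx1*, of opposite sign in replicates 2 and 3.

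Of 25 Wnt feedback and target genes 9 were tested, with a median of 0.31, which was 0.13 without CTRL replicate 2. The 0.31 lay within the 0.30 to 0.36 of named genes beyond the 798 of shortest span, and is not read as a list result. *Axin2*, the negative feedback gene of the pathway, held 357, 435 and 391 normalized counts in CTRL replicates 1, 2 and 3 and 575 and 549.9 in QCKO replicates 2 and 3, a log2 fold change of 0.52 ± 0.27 (limma, unadjusted p = 0.079). *Myc*, a target that promotes growth, held 359, 160.2 and 525 in CTRL against 664 and 739.7 in QCKO, with 2.04 between the libraries of replicate 2 and 0.49 between those of replicate 3. In CTRL *Myc* averaged 1705 in low CHIR and 348 in high CHIR, so it fell with CHIR. *Axin2* and *Notum* rose, from 57.4 and 5.12 to 394 and 180. *Notum*, a secreted Wnt deacylase, overlapped at 102, 312 and 125 in CTRL against 392 and 228 in QCKO, and *Lgr5*, a receptor for R-spondins, at 202, 178 and 215 in CTRL against 138 and 265 in QCKO.

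Of 16 progenitor genes 9 were tested, and their median was -0.35. In 7 the log2 fold change was below 0, against 7909 of all 16516 genes. Lower without overlap were 2 (22.2%, near the 13.9% of CHIR-named genes) and higher none, and without CTRL replicate 2 the lower ones were 4 (44.4%, against 17.6%). *Six2* held 69.2, 64.1 and 83.8 normalized counts in CTRL replicates 1, 2 and 3 and 27.8 and 44 in QCKO replicates 2 and 3 (log2 fold change -1.02 ± 0.29, limma, unadjusted p = 0.0043), and *Crym* was the other. The *Six2* difference in low CHIR was 0.01 ± 0.29, and that between the conditions -1.03 ± 0.41 (limma, unadjusted p = 0.028, adjusted p = 1). *Cited1*, a transcriptional cofactor of uninduced NPCs, held 361, 641 and 355 in CTRL against 426 and 342 in QCKO, *Eya1*, a partner of *Six2*, 1153, 662 and 456 in CTRL against 653 and 364 in QCKO, and *Osr1*, an early kidney factor, 61.2, 27.8 and 55.6 in CTRL against 48.3 and 44.9 in QCKO, and these overlapped.

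Targets of the Hippo effectors YAP and TAZ, which respond to cell contact, had a median of 0.68 over 9 of 27 genes. *Ccn1*, a matricellular protein and a standard YAP target, held 599.9, 74.8 and 202 normalized counts in CTRL replicates 1, 2 and 3 and 706 and 1120.3 in QCKO replicates 2 and 3. Its log2 fold change was 2.08 ± 0.65 (limma, unadjusted p = 0.0069) but 1.35 without CTRL replicate 2, where it was lowest, and CTRL replicate 1 came close to QCKO replicate 2. With the replicate block the *Ccn1* difference was 2.46 in limma (adjusted p = 0.3), and DESeq2 called it (adjusted p = 0.0041). *Myof*, myoferlin, held 246, 130.3 and 182 in CTRL against 296 and 384 in QCKO, and *Amotl2*, an inhibitor of YAP, overlapped at 159, 169.8 and 364 in CTRL against 241 and 577 in QCKO. *Ccn1* and *Myof* were the 2 of 9 that lay higher without overlap (22.2%, near the 19.8% of CHIR-named genes), and they owe their names to the knockout comparisons in high CHIR, *Amotl2* to this comparison alone. None of the 5 CHIR-named members lay apart. An unadjusted p below 0.05 was found on the higher side for 2 of the 9 genes (22.2%, against 11.5% of CHIR-named genes) and for 7 with the replicate block (77.8%, against 17.3%). The median was 0.34 without CTRL replicate 2.

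Of 26 actin and myosin genes 10 were tested, with 1 on each side without overlap: *Tpm2* below and *Flna*, filamin A, above, at 5054, 1874 and 4039.6 in CTRL against 5440.4 and 5973 in QCKO. Both owe their names to this comparison alone, which favours genes that differ, and none of the 6 CHIR-named members lay apart. With the replicate block, 5 of the 10 were higher at an unadjusted p under 0.05 (50%, against 17.3% of CHIR-named genes), where 1 was without it (10%). *Cnn2*, calponin 2, held 1550.2, 548 and 785 in CTRL against 1386 and 1712 in QCKO, with 1.34 between the libraries of replicate 2 and 1.12 between those of replicate 3, and its adjusted p in DESeq2 with the block was 0.0041. For *Fhl2*, a LIM-domain protein, at 230.2, 73.7 and 138 in CTRL against 182 and 263 in QCKO, these differences were 1.30 and 0.93 and the adjusted p 0.046.

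Of 27 integrins and laminins 9 were tested. Higher without overlap were 4 (44.4%, against 19.8% of CHIR-named genes) and lower none, but without CTRL replicate 2 there were 4 higher (44.4%, against 26.1%) and 2 lower (22.2%, near the 17.6% of CHIR-named genes). Among the higher ones were *Lamb2*, the laminin β2 chain, at 127, 83.3 and 123 in CTRL against 249.9 and 271 in QCKO (log2 fold change 1.25 ± 0.32, limma, unadjusted p = 0.0019), and *Itgb3*, integrin β3, named through this comparison alone, at 20.4, 16 and 27.4 in CTRL against 49.5 and 69.2 in QCKO.

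Of 21 genes of the mesenchymal to epithelial transition 9 were tested. The list holds genes of mesenchyme and of epithelium, so counts of higher or lower members give no direction of the transition. *Cdh1* and *Krt8* on it are also ureteric epithelium markers, counted again below. Higher without overlap were 3 (33.3%, against 19.8% of CHIR-named genes) and lower none, and of the 7 CHIR-named members 2 were higher. There were 3 higher (33.3%, against 26.1%) and 1 lower (11.1%, against 17.6%) without CTRL replicate 2 and 7 higher (77.8%, against 32% of CHIR-named genes) without CTRL replicate 1. With the replicate block 4 were higher at an unadjusted p under 0.05 (44.4%, against 17.3%), where 1 was without it (11.1%). *Snai1*, a repressor of epithelial genes, held 426, 64.1 and 60.3 in CTRL against 439 and 289 in QCKO, and overlapped through CTRL replicate 1 alone. Its log2 fold change was 1.58 ± 0.75 (limma, unadjusted p = 0.056), 2.50 without that library and 1.81 with the replicate block (unadjusted p = 0.022, limma). *Krt8*, a keratin of simple epithelia, lay apart at 22.7, 44.9 and 79.9 in CTRL against 119.5 and 102 in QCKO, and *Vim*, vimentin of mesenchyme, overlapped at 13679.6, 4469.9 and 12040.3 in CTRL against 8948 and 9802 in QCKO. Of 19 genes of ER and amino acid stress 6 were tested and 3 were higher without overlap (50%, against 19.8%). They were *Sesn2*, which is also on the p53 list, *Herpud1* and *Hyou1*, an ER chaperone named through this comparison alone. *Hyou1* held 2215, 1059.5 and 1587 in CTRL against 2435 and 2718 in QCKO. *Hspa5*, the most abundant ER chaperone, overlapped at 33821, 22634 and 24292 in CTRL against 25701 and 31258 in QCKO. The median of the 5 CHIR-named members was 0.10, against 0.12 over CHIR-named genes.

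Smaller lists held few named genes. Of 25 interferon-response genes 4 were tested and 3 were higher without overlap (75%, against 19.8% of CHIR-named genes), 1 of them at an unadjusted p under 0.05: *Stat2*, a transducer of type I interferon, at 278, 209 and 194 in CTRL against 368 and 318 in QCKO. Of 20 immediate early genes 6 were tested and all 6 overlapped, *Fos* at 479.7, 228 and 596 in CTRL against 586 and 665 in QCKO. 1 of them, *Spry4*, a feedback inhibitor of receptor tyrosine kinase signalling, at 915, 296 and 685 in CTRL against 856 and 1134 in QCKO, had an adjusted p of 0.046 in DESeq2 with the replicate block. In the Notch pathway 7 of 22 were tested, with *Jag2*, a Notch ligand, higher at 9.07, 13.9 and 17.2 in CTRL against 19.3 and 17.8 in QCKO and *Hes1* lower (14.3% each way, near the background). Of 23 genes of hypoxia and glycolysis 2 were tested, both named through this comparison alone: *Hk1*, hexokinase 1, at 634, 255 and 397 in CTRL against 1009 and 861 in QCKO and *Vegfa* at 85.1, 232 and 121 in CTRL against 99 and 62.7 in QCKO.

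Markers of cells that an NPC culture could carry over were counted in the same way. Of 13 markers of the ureteric epithelium 5 were tested, 3 lay higher without overlap (60%, against 19.8% of CHIR-named genes) and 1 lower (20%, against 13.9%), and none was at 0. Their summed level was 891 to 1077 normalized counts in CTRL and 1833 to 2116 in QCKO. Most of that sum was *Hoxb7*, which overlapped at 584, 625 and 749 in CTRL against 717 and 878 in QCKO, and *Gata3*, a transcription factor of the ureteric bud, which held 354, 171 and 177 normalized counts in CTRL replicates 1, 2 and 3 and 857 and 874 in QCKO replicates 2 and 3 (log2 fold change 1.97 ± 0.58, limma, unadjusted p = 0.0048), and DESeq2 with the replicate block gave an adjusted p of 0.038. *Cdh1* and *Krt8* are the other 2 that were higher, and *Tfap2b*, at 13.6, 16 and 21.2 in CTRL against 10.9 and 7.48 in QCKO, was the lower one. This list moved with the *Cdh1* result above, and its part in it was not tested. Of 13 stroma markers 2 were tested, with sums of 1166 to 2024 in CTRL and 1270 to 1829 in QCKO. *Tek* was the only endothelial marker of 10 tested, at 149, 89.7 and 177 in CTRL against 221 and 357 in QCKO. In low CHIR *Tek* held 1.79, 3.25 and 0 in CTRL. *Gata3* and *Hoxb7* averaged 45.2 and 298 in CTRL in low CHIR against 234 and 653 in high CHIR. *Cdh1* and *Krt8* went the other way, at 217 and 175 in low CHIR against 36.4 and 49.2. Marker levels thus moved with CHIR in CTRL, and how much came from carried-over cells was not tested. No leukocyte marker and no podocyte or tubule marker could be named.

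**Figure D5:**
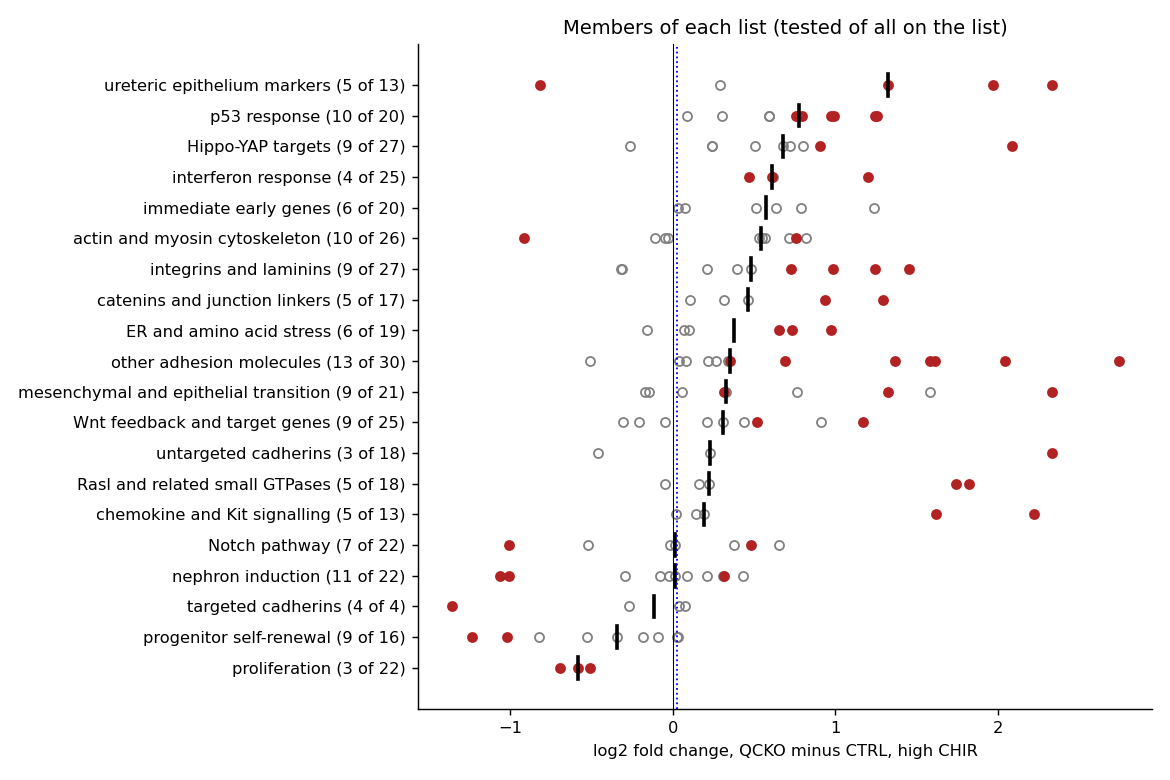
Log2 fold change of QCKO over CTRL in high CHIR (horizontal axis) for every tested member of the lists with at least 3 tested members, 1 row a list, with the number tested of all on the list in brackets. Filled red points are genes whose QCKO and CTRL libraries do not overlap, black bars are list medians and the dotted line is the median of all genes, 0.02. The p53 list has a median of 0.78 with all points above 0, and the nephron induction list has a median of 0.01, which was -0.28 without CTRL replicate 2.

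In low CHIR the same comparison of QCKO with CTRL called 1 gene of 16516 (0.00605%), 6030452D12Rik, with 266 genes (1.61%) at an unadjusted p under 0.05, 134 higher (0.811%) and 132 lower (0.799%). The gene, which is named here because it was the only call, held 0.893, 3.25 and 3.18 in CTRL against 58.1 and 93.5 in QCKO in low CHIR, a log2 fold change of 4.53 ± 0.57 (limma, adjusted p = 0.0497). It was at 6.8, 11.7 and 3.13 in CTRL against 19.3 and 20.6 in QCKO in high CHIR, again higher in both QCKO libraries. It reached the minimum mean of 10 only through the QCKO libraries, as CTRL averaged 2.44 in low and 7.23 in high CHIR. The call is therefore not independent of the filter. The call was lost in 10 alternatives of processing, among them each setting that left out 1 of the libraries. DESeq2 called 2 genes (0.0121%) in low CHIR, this one and *Matn1*, the cartilage matrix protein matrilin-1, which held 55.3, 83.4 and 135 in CTRL against 356 and 1003 in QCKO in low CHIR and at most 3.74 normalized counts in any high CHIR library of the 2 groups.

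The test of the difference itself, the QCKO effect in high CHIR minus that in low CHIR, called 0 of 16516 genes by limma (0%) and 0 by DESeq2, with 213 genes (1.29%) at an unadjusted p under 0.05 by limma, 150 of them with a difference above 0 (0.908%) and 63 below 0 (0.381%). The genes that led in high CHIR gave large estimates without passing the adjusted threshold. The difference was 1.89 ± 0.44 log2 units for *Rasl11a* (unadjusted p = 0.00099, limma), where the low CHIR values were 248, 416 and 389.5 in CTRL against 342 and 278 in QCKO. It was 1.67 ± 0.47 for *Cxcl12* (unadjusted p = 0.0036) and 1.74 ± 0.49 for *Kit* (unadjusted p = 0.0037, limma).

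Against α-catenin KO in high CHIR, QCKO showed 0 of 16516 genes called by limma (0%) and 123 (0.745%) at an unadjusted p under 0.05. DESeq2 called 1 gene, *Ctnna1*, the target of the α-catenin guides, which held 3564 and 3621 in α-catenin KO and 8915 and 9631 in QCKO (log2 difference 1.37 ± 0.21, limma). The genes that led QCKO over CTRL were also high in α-catenin KO, which was set against the same CTRL libraries. That comparison had 0 genes called by limma, 928 genes (5.62%) at an unadjusted p under 0.05, of which 627 were higher (3.8%), and 4 called by DESeq2 (0.0242%): *Serpinb7*, *Cpm*, *Ctnna1* and ENSMUSG00000032327. *Rasl11a* held 3115 and 3885 in α-catenin KO, *Cxcl12* 184 and 323, *Kit* 2149 and 4013, *Serpinb7* 959.6 and 415 and *Cpm* 1842 and 1159. The direct differences of QCKO from α-catenin KO were 0.52 ± 0.34 log2 units for *Rasl11a*, 0.73 ± 0.36 for *Cxcl12*, -0.70 ± 0.57 for *Serpinb7* and -0.07 ± 0.26 for *Cpm*, with unadjusted p-values of 0.16, 0.064, 0.24 and 0.8 (limma). Missing the threshold does not show that the 2 knockouts act alike. *Tpm1*, α-tropomyosin, of the cytoskeleton list, stood at 3611 and 2650.3 in α-catenin KO against 1583 and 1616 in QCKO (-0.95 ± 0.20 log2 units, unadjusted p = 0.00037, adjusted p = 1.0, limma).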

How the data were processed

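The authors deposited normalized counts per gene for 20 libraries, a signal made by dividing read counts by 1 size factor per library. The submitters' processing notes name bcl2fastq, STAR, Subread, featureCounts, Salmon, DESeq2 and the builds GRCm38, GRCh38 and mm10 with no role. The cDNA kit does not mark strand, so antisense reads cannot be told apart. All values were whole multiples of the smallest step in their library within 0.001 (100% of values), a weaker sign in 2 libraries with a size factor near 1, and these multiples were taken as reads. Genes averaging at least 10 over 14 libraries (CTRL, QCKO and α-catenin KO) were tested with limma 3.58.1 (trend) on log2(value + 1), Benjamini-Hochberg adjusted, and called at an adjusted p under 0.05 and a log2 fold change over 0.5. This scale understates low genes. DESeq2 1.42.0 and edgeR 4.0.16 on the reads were alternatives, and all 3 were tested on simulated data. Replicate numbers stand for dates in the titles and were taken to pair the libraries in the blocked fits. Deviations of QCKO and CTRL in high CHIR correlated at 0.32 for replicate 2 and 0.38 for replicate 3 across genes. With 2 QCKO libraries the deviation of 1 is the negative of the other, so these values are not separate and do not settle the pairing. P-values measure the spread between these libraries, which may be technical. Symbols came from the authors' 7 comparison tables (4316 identifiers, 3382 with a RefSeq entry), whose fold changes and p-values were not used. Members and gene lists were chosen with earlier results of these data known. Named were the targeted cadherins, *Rasl11a* and every gene called in high CHIR by limma, DESeq2 or edgeR without the replicate block. Genes that only the block called were not added for that call. Also named were the 10 genes with a symbol on each side with the lowest unadjusted p among those averaging 100 or more and not overlapping. From each list came up to 4 members with the lowest p plus well-known members. Members beyond these were named after their values were seen. The *Cdh2* guide, the reporter guide and 2 other genes are not reported here.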

Additional observations from a re-analysis of the deposited data

How the results depend on the processing

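Limits: 2 against 3 libraries, 1 CTRL library that stood apart, names for 3924 of 16516 genes and mixed edited cells bound every value, and genes of low count or wide spread have wide errors. The count of genes called in high CHIR was 0 under limma in every setting and under edgeR. It was 7 with DESeq2, 79 with DESeq2 and the replicate block, and 1, *Rasl11a*, with DESeq2 on all 20 libraries without a filter. The last was an alternative chosen after seeing the data. QCKO against α-catenin KO gave 0 genes, but 1 with DESeq2, 9 with DESeq2 and the replicate block and 1 with DESeq2 on all 20 libraries. The difference between high and low CHIR gave 0 throughout. In low CHIR the 1 call became 0 at a mean of at least 100, at a pseudocount of 0.25, with only the groups compared, with the replicate block in limma and in edgeR, 2 with DESeq2 and 5 with DESeq2 and the replicate block, and it was between 0 and 0 with each library left out. The *Cdh11* difference was -1.33 with DESeq2 and -1.27 with DESeq2 and the replicate block, both called, and -1.75 to -0.98 with 1 library left out. DESeq2 on all 20 libraries did not call *Cdh11*. *Cdh3* turned to -0.15 with the replicate block in limma, and to -0.21 with it in DESeq2 and in edgeR. With 1 library left out, *Cdh2* ran from -0.57 to 0.084, *Cdh3* from -0.10 to 0.17 and *Cdh4* from -0.27 to 0.35. The cause of these turns was not tested. Of the 87 other genes named by the rule, 79 kept their direction in every alternative and 17 were called in at least 1. The 8 of them that turned all overlapped between the groups. Members named beyond the rule, such as *Cnn2* and *Fhl2*, which DESeq2 called with the block, are not in this tally. *Cxcl14* turned to -0.65 with the replicate block in limma, -0.64 in DESeq2 and -0.57 in edgeR, and *Rasd1* to -0.090, -0.072 and -0.069, while *Egr3* was -0.0011 in edgeR. Leaving out 1 library, the ranges were -0.996 to 0.075 for *Cdh15*, -0.26 to 0.43 for *Cxcl14*, -0.75 to 1.37 for *Egr3*, -0.30 to 0.60 for *Kitl*, -0.33 to 0.65 for *Rasd1*, -0.60 to 1.05 for *Rasl12*, -0.63 to 0.33 for *Tcf21* and -0.35 to 0.059 for *Xbp1*. In limma and edgeR the replicate block changed no other call. The genes below an unadjusted p of 0.05 in high CHIR, 1444 in the report, ran from 571 without QCKO replicate 3 to 3357 without CTRL replicate 1.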
